A study of Mus musculus with 24 samples.

Results

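The 10 genes described here mark endothelium, the cell layer that lines blood vessels: Pecam1, Cdh5, Kdr, Flt1, Tek, Tie1, Vwf, Eng, Nos3 and Emcn. They were taken by name, by matching the accession of each probe, without its version, to a mouse RefSeq symbol and keeping the brightest probe of a gene, and they were 10 of the 22907 symbols that had a matched probe. Each gene had 1 matched probe, and all 10 probes were well above background on all 24 arrays, so no filter on low values removed a gene. RNA from whole lung, liver, kidney and white adipose tissue (WAT) of young and aged mice was read on 24 Agilent arrays with 1 dye, 1 array per tissue sample. Every mouse was a C57BL/6J male, and each tissue came from 3 mice of 10 weeks and 3 mice of 90 weeks, with no treatment or genetic change named for any group. Both ages of a tissue shared 1 slide, and each tissue had a slide of its own, so tissue and slide cannot be told apart.

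Endothelial cells hold on to each other through cadherin and adhesion molecules, and they read growth signals through tyrosine kinase receptors of the VEGF and angiopoietin families. They also store clotting factors for release and make nitric oxide, which relaxes the muscle of the vessel wall. The same cells take a different form in each organ, from the thin capillaries of the lung alveoli to the windowed capillaries of the kidney glomerulus and the open sinusoids of the liver.

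A level is the log2 of a probe's background-subtracted signal minus the 75th percentile of that array, so that 0 is the signal below which 75% of the array's probes lie. Between 58.6% and 71.1% of probes were well above background per array, the 75th percentile lay between 259 and 956 signal units, and the number of arrays limits the precision. A gene was called when limma's adjusted p, over all genes of the comparison, was under 0.05; an exact test of 3 arrays against 3 cannot give a p under 0.10. Levels are compared for the same gene between samples. For some of the signals summed over a list the probe with the largest term is named, which is no order of abundance between genes. Signals come from whole tissue, so fewer endothelial cells and less RNA per cell cannot be told apart. The labelled tissues carried their own markers: the summed signal of 4 airway and alveolar genes was 1343 to 1951 times the 75th percentile signal in lung, with the largest term from Sftpc, a surfactant protein gene, and Sftpc was not well above background on any liver or kidney array. Of the WAT arrays, young replicate 1 alone had Sftpc, and also Umod, a kidney gene, well above background. In their own tissues the 4 liver genes summed to 1645 to 2697, the 5 kidney genes to 212 to 699 and the 4 fat genes to 544 to 847.

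Lung was the tissue richest in endothelial transcripts at 10 weeks, holding the highest level of 8 of the 10 genes. Nos3 was highest in WAT, and Emcn was highest in kidney. Kidney and liver each held the lowest level of 5 genes. The distance between the highest and the lowest tissue ran from 2.13 (4.37-fold) for Kdr to 7.41 (170-fold) for Vwf, on the log2 scale. These levels answer how strongly each vessel gene is read in each organ of a young mouse.

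**Figure D1:**
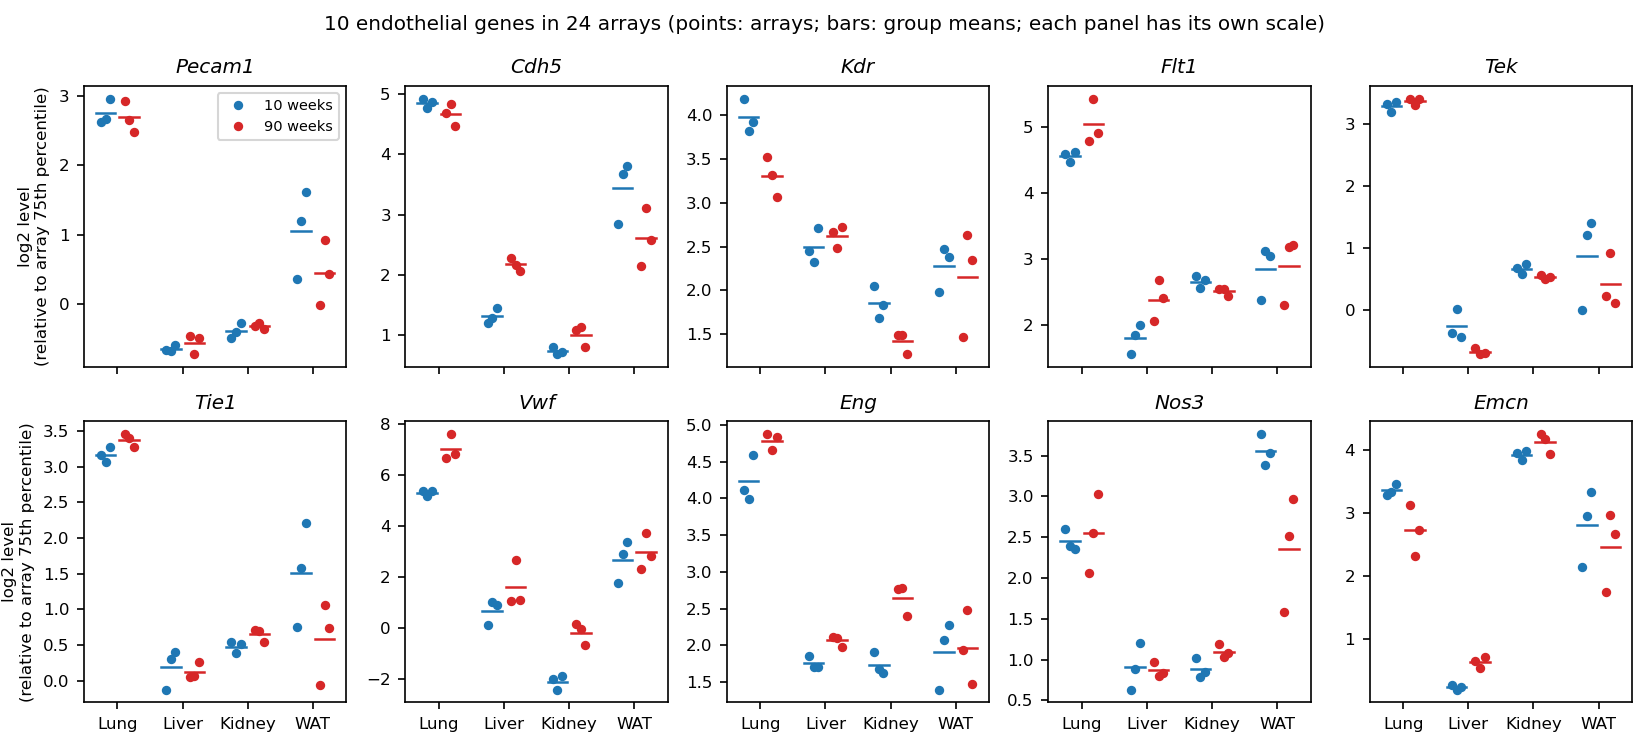
Log2 level of each of the 10 genes relative to the array's 75th percentile in each tissue at 10 weeks (blue) and 90 weeks (red); points are arrays and bars are means of 3. Lung lies highest for most genes, Emcn lies highest in kidney, and the young WAT samples lie highest for Nos3.

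Of the junction and surface proteins, Cdh5, the VE-cadherin that joins endothelial cells (NM_009868), read 4.92, 4.77 and 4.87 in the young lungs and 2.84, 3.67 and 3.81 in young WAT. Its level was 1.21, 1.29 and 1.44 in the young livers and 0.79, 0.68 and 0.71 in the young kidneys. The 4 tissues did not overlap, and lung stood 4.13 ± 0.22 (SE) above kidney, which is 17.5-fold. Pecam1, an adhesion molecule of endothelial junctions that platelets and leukocytes also carry (NM_001032378), averaged 2.74 ± 0.18 (SD, n = 3) in lung and 1.06 ± 0.64 in WAT. It was lower in kidney, −0.39 ± 0.11, and in liver, −0.64 ± 0.04, and these neighbours were not told apart by limma (adjusted p = 0.396). Emcn, a sialomucin of capillary and venous endothelium (NM_016885), ran in another order. It read 3.95, 3.84 and 3.98 in the young kidneys, 3.29, 3.33 and 3.45 in lung, 2.14, 2.95 and 3.34 in WAT, and 0.28, 0.20 and 0.25 in liver. Kidney lay above lung in every sample, yet by limma neither kidney and lung (adjusted p = 0.0835) nor lung and WAT (0.103) were told apart; the first pair passed when the young WAT replicate 1 was left out (0.0409) and the second when the young WAT replicate 3 was left out (0.814 apart, 0.0258).

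Of the receptors, Kdr and Flt1 bind VEGF: Kdr (NM_010612) carries most of its growth signal and Flt1 (NM_010228) binds it tightly and limits it. Kdr averaged 3.98 ± 0.19 (SD, n = 3) in lung, 2.50 ± 0.19 in liver, 2.28 ± 0.26 in WAT and 1.85 ± 0.18 in kidney. Flt1 averaged 4.56 ± 0.08 in lung, 2.84 ± 0.41 in WAT, 2.66 ± 0.09 in kidney and 1.80 ± 0.22 in liver. The lower neighbours ran into each other: by limma, Kdr in WAT differed from neither liver (adjusted p = 0.408) nor kidney (0.124), and Flt1 did not differ between WAT and kidney (0.529). Tek (NM_013690) is the angiopoietin receptor Tie2, and Tie1 (NM_011587) is its partner without a ligand of its own. Tek averaged 3.29 ± 0.09 in lung, 0.87 ± 0.76 in WAT, 0.66 ± 0.08 in kidney and −0.27 ± 0.24 in liver, and Tie1 averaged 3.17 ± 0.10, 1.51 ± 0.74, 0.48 ± 0.08 and 0.19 ± 0.28 in the same order. Neighbours were again close, with adjusted p from limma of 0.516 for Tek in kidney against WAT and 0.409 for Tie1 in liver against kidney. Without the young WAT replicate 1, the sample with the lowest Tek of its group, WAT stood above kidney for Tek (−0.64 for kidney minus WAT, adjusted p = 0.0059 by limma). Eng (NM_001146350), a co-receptor for BMP9 and TGF-beta family ligands that macrophages also carry, averaged 4.23 ± 0.32 in lung. Its other tissues lay together at 1.91 ± 0.46 in WAT, 1.75 ± 0.09 in liver and 1.74 ± 0.16 in kidney, with no pair of them called.

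Vwf and Nos3 carry out vessel functions. Vwf encodes the von Willebrand factor that tethers platelets (NM_011708), and platelets and their precursors make it too. It read 5.37, 5.18 and 5.37 in the young lungs, 1.78, 2.89 and 3.37 in WAT, 0.11, 1.04 and 0.92 in liver, and −2.01, −2.41 and −1.89 in kidney. No young kidney came near any other tissue. The gap to kidney was 2.79 (6.92-fold) from liver, the nearest tissue, and 4.79 (27.6-fold) from WAT. Nos3, the endothelial nitric oxide synthase (NM_008713), read 3.77, 3.38 and 3.54 in young WAT and 2.60, 2.39 and 2.36 in lung. It was 0.63, 0.88 and 1.2 in liver and 1.01, 0.79 and 0.85 in kidney. WAT and lung did not overlap, and lung minus WAT was −1.11 ± 0.27 (SE, adjusted p = 0.0018 by limma), whereas liver and kidney overlapped and differed by 0.02 (0.952).

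Pair by pair, lung exceeded liver for 10 of 10 genes, against 27.4% of the 33265 genes tested that were higher in lung and 45.8% that were lower. Lung exceeded kidney for 9 of 10, all but Emcn, with 25.9% of all genes higher and 37.6% lower. It exceeded WAT for 8 of 10 and was lower for Nos3, with 22.9% of all genes higher and 30% lower. Liver exceeded kidney for Cdh5, Kdr and Vwf and was lower for Flt1, Tek and Emcn, beside 31.9% and 23.8% of all genes. Liver exceeded WAT for 0 of 10 by limma, with Kdr (0.22) and Eng (−0.16) not called even at an unadjusted p of 0.05, and was lower for 8, beside 40.9% and 26.5%. Kidney exceeded WAT for Emcn and was lower for Pecam1, Cdh5, Tie1, Vwf and Nos3, beside 31.9% and 23.7%. The members' median difference was 3.04 for lung minus liver, 2.56 for lung minus kidney and 1.70 for lung minus WAT, where the medians of all genes were −0.41, −0.21 and −0.11. For liver minus kidney it was −0.12 (all genes 0.17), for liver minus WAT −1.51 (0.25), and for kidney minus WAT −0.73 (0.09).

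Between tissues several calls turned on the scaling. Scaling to the spike-in probes, each centred on its own mean, moved the median of all genes to 0.98 for lung minus liver, 0.74 for lung minus kidney and 0.87 for lung minus WAT, so that 84.3%, 80.5% and 89.7% of all calls were higher in lung in place of 37.4%, 40.8% and 43.3%. It also moved the medians for liver minus kidney to −0.27 and for liver minus WAT to −0.17, with 31.0% and 43.1% of calls higher in liver in place of 57.2% and 60.7%. Normexp background correction gave shares of 24.2%, 29.2%, 74.1%, 75.6% and 67.5% for lung against liver, lung against kidney, liver against kidney, liver against WAT and kidney against WAT, the last in place of 57.4%. On the spike-in scale Nos3 was no longer lower in lung than in WAT (−0.14, adjusted p = 0.717 by limma), Emcn turned to 0.38 for lung minus kidney and became higher in lung than in WAT (1.53), and Cdh5 (0.14) and Kdr (0.20) no longer differed between liver and kidney. The median over all spike-in spots also ended 4 calls with larger differences: Flt1 (−1.04 to −0.87, adjusted p = 0.0770 by limma) and Tek (−1.14 to −0.97, 0.0637) for liver minus WAT, and Pecam1 (−1.44 to −0.81, 0.132) and Tie1 (−1.04 to −0.40, 0.477) for kidney minus WAT. The lung stood above liver for all 10 genes under each scaling. The 2 small liver and kidney calls also rested on single arrays: Cdh5 (0.58, adjusted p = 0.0328 by limma) was lost without young liver replicate 2 (0.60, 0.0614) or 3 (0.52, 0.0968) or young kidney replicate 1 (0.62, 0.0542), 2 (0.56, 0.0789) or 3 (0.58, 0.0718). Kdr (0.64, 0.0227) was lost without young liver replicate 3 (0.53, 0.0889) or young kidney replicate 2 (0.55, 0.0837) or 3 (0.63, 0.0540), and under quantile normalization (0.56, 0.0526).

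How closely the genes kept to 1 pattern was read across the 24 arrays, as a description whose points share their tissue and slide. Pearson's r of each gene with the mean of the other 9 was 0.99 for Pecam1, 0.97 for Tie1, 0.95 for Flt1, 0.93 for both Cdh5 and Tek, 0.87 for Eng, 0.84 for Vwf, 0.74 for Kdr, 0.64 for Nos3 and 0.23 for Emcn. Among 15484 genes ranked by r with the mean of all 10, the closest outside them were Arap3, a GTPase regulator (0.994), Ramp2, a partner of the adrenomedullin receptor (0.992), Adgrf5 (0.989), Jcad, a protein of endothelial junctions (0.988), and Icam2, an adhesion molecule (0.988). By limma, none of these 5 was called between ages in lung or WAT; Arap3 (0.34), Ramp2 (0.58) and Jcad (0.39) rose in the aged kidney, and Arap3 (0.48) and Icam2 (0.73) rose in the aged liver.

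Promoter sequence of 6 of the 10 genes (Kdr, Flt1, Tek, Tie1, Eng and Emcn) was found in RefSeq for the build GRCm38.p6; Pecam1, Cdh5, Vwf and Nos3 were not matched. The windows hold the 250 bases before the start of the gene and were searched for GGAA, or TTCC on the other strand, the core of the sites of ETS factors, a family that includes the endothelial regulators Erg and Fli1. Tie1 is shown because it holds the most copies, Emcn because its tissue order stood apart, and Kdr and Eng because they moved in opposite directions in the aged kidney on the main scale; capitals mark GGAA or TTCC, and each line runs 5′ to 3′ on the gene's strand. They lie at chr4:118489850-118490099 (minus strand) for Tie1, chr3:137340828-137341077 (plus) for Emcn, chr5:75978456-75978705 (minus) for Kdr and chr2:32646345-32646594 (plus) for Eng.
Tie1: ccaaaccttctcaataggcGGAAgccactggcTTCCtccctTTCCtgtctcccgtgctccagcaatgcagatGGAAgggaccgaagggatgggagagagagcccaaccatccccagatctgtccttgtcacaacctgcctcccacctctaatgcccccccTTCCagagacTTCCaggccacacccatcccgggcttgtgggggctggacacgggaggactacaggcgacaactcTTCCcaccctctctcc
Emcn: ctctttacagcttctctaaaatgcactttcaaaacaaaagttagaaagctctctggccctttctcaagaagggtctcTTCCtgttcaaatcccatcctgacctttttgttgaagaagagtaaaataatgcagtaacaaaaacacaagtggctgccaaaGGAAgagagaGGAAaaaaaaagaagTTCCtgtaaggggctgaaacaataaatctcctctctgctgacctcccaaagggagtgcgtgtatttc
Kdr: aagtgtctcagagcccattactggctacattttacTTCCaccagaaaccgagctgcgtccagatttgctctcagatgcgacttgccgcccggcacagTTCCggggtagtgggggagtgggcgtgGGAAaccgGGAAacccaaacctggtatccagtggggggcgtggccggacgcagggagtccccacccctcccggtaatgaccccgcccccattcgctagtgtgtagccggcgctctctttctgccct
Eng: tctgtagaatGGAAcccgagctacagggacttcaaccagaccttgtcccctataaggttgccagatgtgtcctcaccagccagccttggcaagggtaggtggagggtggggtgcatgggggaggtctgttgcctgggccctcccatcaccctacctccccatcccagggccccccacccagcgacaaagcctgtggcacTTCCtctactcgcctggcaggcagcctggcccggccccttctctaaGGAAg
The core was found 7 times for Tie1, 4 times each for Kdr, Flt1 and Emcn, 3 times for Eng and 2 times for Tek. It is common: 93.4% of the 32851 windows of all genes hold it, with a median of 3 copies, and 3.82% hold 7 or more. The longer form ACAGGAA, or TTCCTGT, which contains the shorter one, was found 1 time for Tie1 and 2 times for Emcn, and in 7.2% of all windows, with 0.414% holding 2 or more. GATAA, or TTATC, the core of GATA factor sites, was in 0 of the 6 windows and in 22.6% of all. These are counts of letters in the windows and nothing was measured at them.

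On the main scale and with all arrays, 5 calls with age were made over the 10 genes and 4 tissues. Vwf rose in lung and kidney, Cdh5 rose in liver, Eng rose in kidney and Kdr fell in kidney, and none of the 10 passed in WAT. The comparison of 90-week with 10-week mice in each tissue asks which vessel transcripts differ in old organs.

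**Figure D2:**
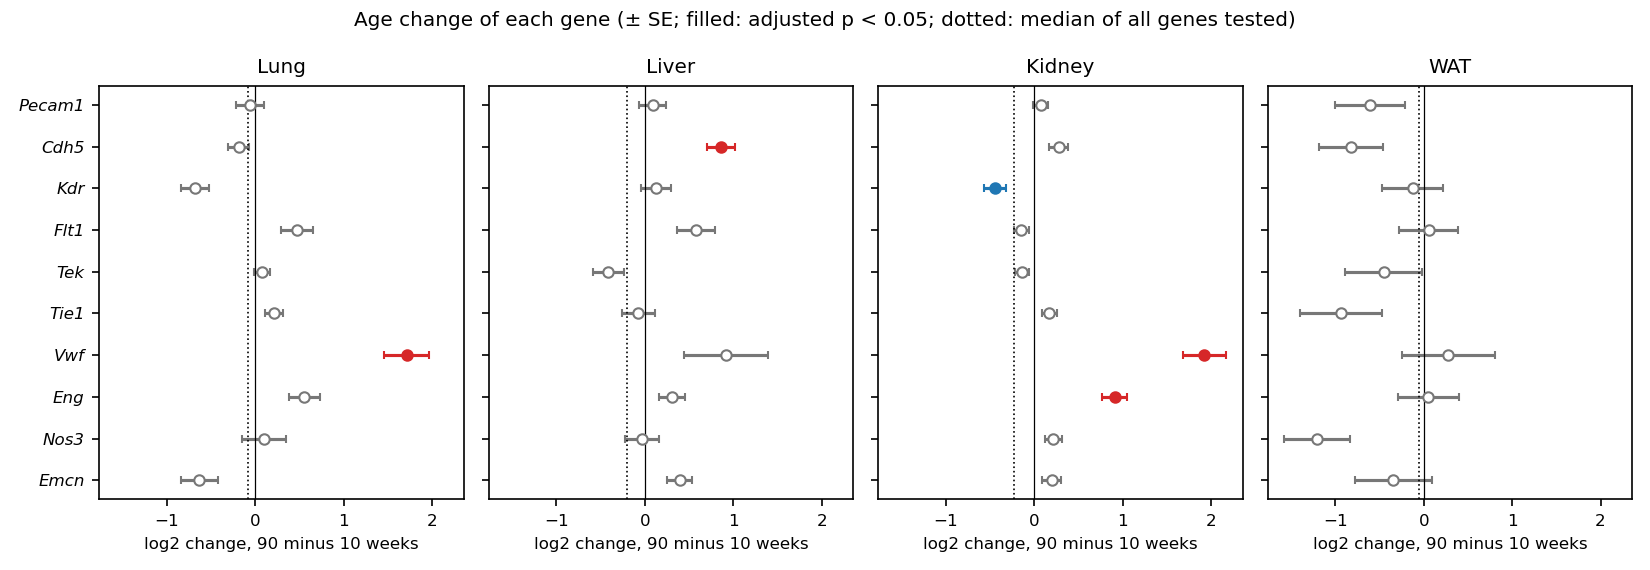
Log2 change of each gene from 10 to 90 weeks in each tissue with its SE; filled points passed limma at an adjusted p under 0.05, and the dotted line is the median of all genes tested. Vwf lies far to the right in lung (1.71) and kidney (1.92), and the WAT changes have the widest errors.

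Kidney had the most calls among the 10 genes, with Vwf and Eng higher and Kdr lower at 90 weeks. That is 2 genes higher, where 20.7% of the 31485 genes tested rose, and 1 lower, where 42.5% fell. The groups did not overlap for 5 genes that were higher and 3 that were lower, beside 70.7% of all genes. The kidney's age difference was wide across the transcriptome, and the median of all genes was −0.23, against 0.18 for the 10 genes.

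Vwf, the platelet tether, read −2.01, −2.41 and −1.89 in the young kidneys and 0.15, −0.03 and −0.67 in the aged ones. Every aged kidney lay above every young one, and the rise was 1.92 ± 0.25 (SE), or 3.79-fold (adjusted p = 0.0010 by limma). Eng, the BMP9 co-receptor, read 1.91, 1.67 and 1.62 in young and 2.76, 2.78 and 2.39 in aged kidneys, again without overlap, a rise of 0.91 ± 0.14 (1.88-fold, adjusted p = 0.0022 by limma). Kdr, the main VEGF receptor, went the other way, from 2.05, 1.68 and 1.84 to 1.49, 1.49 and 1.27. The aged kidneys all lay below the young ones, and the fall was −0.44 ± 0.12 (1.36-fold, adjusted p = 0.0215 by limma). Cdh5, the junction cadherin (0.27, adjusted p = 0.0696 by limma), and Nos3, the nitric oxide synthase (0.21, 0.0912), lay higher in every aged kidney without passing, and Tie1 (0.17) did so too. Flt1 (−0.15) and Tek (−0.14) lay lower in every aged kidney, while Emcn (0.20) and Pecam1 (0.07) overlapped. Aged replicate 3 gave the lowest value of its group for 8 of the 10 genes; without it Cdh5 (0.38, 0.0136) and Emcn (0.29, 0.0398) passed and Kdr did not (−0.37, 0.0592), nor did Kdr without young replicate 1 (−0.34, 0.0535) or 3 (−0.45, 0.0504).

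The direction of the small kidney changes turned on the scaling. On the spike-in scale, with each spike-in probe centred on its own mean, the median of all genes moved from −0.23 to 0.14 and 66.0% of all calls were higher in place of 32.7%. On that scale 7 of the 10 genes rose (Pecam1, Cdh5, Tie1, Vwf, Eng, Nos3 and Emcn), beside 29.4% of all genes, 0 fell by limma, adjusted or not, and Kdr stood at −0.07 (adjusted p = 0.801), Flt1 at 0.23 and Tek at 0.24. Normexp background correction put 21.5% of calls higher and the median over all spike-in spots put 76.9% higher; the latter, which falls in a gap between 2 spike-in probes and is described in the closing part on processing, kept only the Vwf call, with Eng at 1.11 (adjusted p = 0.0638 by limma). Normexp (adding Cdh5 and Nos3), quantile normalization (adding Cdh5, Nos3 and Emcn) and centring on the median of tested genes (adding Flt1 and Tek, lower) each gave 5 calls. Of the 31485 genes tested, 4851 rose and 17735 fell with normexp, 7749 and 11799 with quantile normalization, and 5698 and 15687 with centring. The Kdr call also ended under quantile normalization (−0.28, adjusted p = 0.104 by limma) and with all 24 arrays in the fit (−0.44, 0.127). Relative to the mean of the other 9 genes, a ratio within each array that a shift of the whole array leaves unchanged and quantile normalization does not, Vwf was higher by 1.80 and Eng by 0.67 in aged kidneys, and Kdr was lower (−0.83), as were Flt1 (−0.50), Tek (−0.49), Tie1 (−0.15) and Emcn (−0.12), each without overlap between ages. The mean holds Vwf and Eng for all the other genes, so their rise lowers those values by construction: Tie1 and Emcn lay at 0.17 and 0.20 before it was subtracted. The same holds for Vwf in the other tissues.

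Lung gave 1 call among the 10 genes, Vwf, the platelet tether. That is 1 gene higher, where 2.7% of the 30312 genes tested rose, and 0 lower by limma, where 2.86% fell; 5 of the 10 genes passed at an unadjusted p of 0.05, beside 26.9% of all genes, and the methods' t-test called 0 after adjustment, beside 0.696%. The groups did not overlap for 4 genes that were higher and 2 that were lower, beside 35.8% of all genes. The median change of the 10 genes was 0.09 and that of all genes −0.08.

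Vwf read 5.37, 5.18 and 5.37 in the young lungs and 6.64, 7.59 and 6.82 in the aged lungs. All aged lungs stood above all young ones, replicate 2 highest, and the rise was 1.71 ± 0.26 (SE), or 3.28-fold (adjusted p = 0.0247 by limma). By limma the call was lost without young replicate 1 (1.74, adjusted p = 0.108), 2 (1.65, 0.107) or 3 (1.75, 0.0870) and without aged replicate 3 (1.81, just over the threshold at 0.050), while the change kept its size. It was also lost with no filter on dim probes (adjusted p = 0.0601 by limma) and by the methods' t-test. The replicate block described in the closing part on processing ended it too (1.71, adjusted p = 0.087 by limma). Kdr, the growth receptor, read 4.19, 3.83 and 3.93 in young and 3.52, 3.32 and 3.07 in aged lungs. All aged lungs lay below all young ones (−0.68 ± 0.16, 1.60-fold), but limma did not call it (adjusted p = 0.0665). Emcn read 3.29, 3.33 and 3.45 and then 3.12, 2.32 and 2.73, also without overlap (−0.63 ± 0.21, adjusted p = 0.124 by limma), and it passed when aged replicate 1 was left out (−0.83, 0.0499). Eng, with 4.11, 3.99 and 4.59 against 4.88, 4.65 and 4.83, lay higher in every aged lung without being called (0.56 ± 0.18, adjusted p = 0.120 by limma).

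The other 6 genes lay closer between ages in lung. Flt1 (0.48) and Tie1 (0.21) lay higher in every aged lung and were not called, while Cdh5 (−0.19), Nos3 (0.10), Tek (0.08) and Pecam1 (−0.06) overlapped between ages. Leaving out 1 array gave 0.28 to 0.60 for Flt1, −0.27 to −0.09 for Cdh5 and 0.03 to 0.11 for Tek. Against the mean of the other 9 genes, Vwf was higher by 1.73 and Flt1 by 0.35, and Kdr (−0.93), Emcn (−0.88) and Cdh5 (−0.38) were lower, each without overlap. On the spike-in scale by probe the median of all lung genes was −0.17 and the same gene was called, with Tek at −0.01. Normexp put 60.2% of all lung calls higher and the median over all spike-in spots 16.4%, in place of 48.5%; the latter also called Kdr (−0.98, adjusted p = 0.0235 by limma).

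Liver gave 1 call, Cdh5. That is 1 gene higher, where 10.6% of the 27869 genes tested rose, and 0 lower by limma, where 16.8% fell; 3 of the 10 genes passed at an unadjusted p of 0.05, beside 43.6% of all genes, and the methods' t-test called 2 after adjustment, Cdh5 and Emcn, beside 11.1%. The groups did not overlap for 5 genes that were higher and 1 that was lower, beside 49.8% of all genes. The median change of the 10 genes was 0.22 and that of all genes −0.20.

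Cdh5, the junction cadherin, read 1.21, 1.29 and 1.44 in the young livers and 2.29, 2.17 and 2.07 in the aged livers 1, 2 and 4. The 3 aged livers stood above the 3 young ones with a clear gap, a rise of 0.86 ± 0.15 (SE), or 1.82-fold (adjusted p = 0.0115 by limma). Without young replicate 2 the change was 0.85 and the call was lost (0.0537). It was also lost with the replicate block described in the closing part on processing (0.98, adjusted p = 0.077 by limma). Vwf was not called, from 0.11, 1.04 and 0.92 to 1.05, 2.65 and 1.1 (0.91 ± 0.47, adjusted p = 0.180 by limma). Aged replicate 2 alone lay far above the rest (0.39 without it), and the other aged livers lay just above the young ones. Flt1 read 1.56, 1.85 and 2.0 and then 2.06, 2.68 and 2.40 (0.58 ± 0.22, adjusted p = 0.0837 by limma), and Emcn read 0.28, 0.20 and 0.25 and then 0.65, 0.55 and 0.72 (0.39 ± 0.14, 0.0788). Both lay higher in every aged liver, as did Eng (0.31, 0.146). Tek, the angiopoietin receptor, lay lower in every aged liver, from −0.37, 0.01 and −0.45 to −0.63, −0.72 and −0.70 (−0.41 ± 0.18, adjusted p = 0.116 by limma).

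Kdr (0.13), Pecam1 (0.09), Tie1 (−0.07) and Nos3 (−0.03) overlapped between young and aged livers. Against the mean of the other 9 genes, Cdh5 was higher by 0.65, and Tek (−0.76), Tie1 (−0.39) and Nos3 (−0.34) were lower, each without overlap. The spike-in scale by probe moved the median of all liver genes from −0.20 to −0.08 and put 73.1% of all calls higher in place of 38.6%, and on it Cdh5 missed the threshold (0.98, adjusted p = 0.0655 by limma), so that 0 genes were called, while normexp, with 24.2% of calls higher, called 4 (Cdh5, Flt1, Eng and Emcn). With normexp 2388 of the 27869 genes tested rose and 7475 fell. The median over all spike-in spots put 23.2% of calls higher, called 0 of the 10 genes and gave Cdh5 0.32.

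In WAT 0 of the 10 genes were called by limma, where 1.99% of the 30042 genes tested rose and 0.566% fell. Nos3 was the sole gene of the 10 at an unadjusted p under 0.05, beside 19.2% of all genes, and the sole gene whose groups did not overlap, lower at 90 weeks, beside 28.7% of all genes without overlap. The methods' t-test called 0 of the 10 as well, beside 0.00333% of all genes, and with all 24 arrays in the fit 3 were called lower, beside 10.4%: Nos3 (adjusted p = 0.0033 by limma), Cdh5 (0.0124) and Tie1 (0.0228). The changes were mostly negative, 7 of 10, with a median of −0.40 against −0.05 for all genes. The median over all spike-in spots put 93.6% of all WAT calls higher in place of 77.9%, and 0 of the 10 genes were called on either scale.

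Nos3, the nitric oxide synthase, read 3.77, 3.38 and 3.54 in young WAT and 1.58, 2.51 and 2.97 in aged WAT. The young samples sat close together above all the aged ones, which were spread, and the change was −1.21 ± 0.37 (SE, 2.31-fold, adjusted p = 0.160 by limma). Tie1 read 0.75, 1.58 and 2.22 and then −0.07, 1.06 and 0.74 (−0.94 ± 0.46), and Cdh5 read 2.84, 3.67 and 3.81 and then 2.14, 3.12 and 2.58 (−0.83 ± 0.36). For both, the groups overlapped because young replicate 1 lay among the aged samples. The other changes were −0.61 for Pecam1, −0.45 for Tek, −0.35 for Emcn, −0.13 for Kdr, 0.28 for Vwf and 0.05 for both Flt1 and Eng.

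WAT samples differed within an age more than those of other tissues. The median SD of the 10 genes was 0.57 among young and 0.55 among aged WAT samples, where that of all genes was 0.27 and 0.26. The mean over the 10 genes, each centred on its own mean over all arrays, was −0.30, 0.42 and 0.66 in young and −0.67, 0.32 and −0.10 in aged WAT. Young replicate 1 was the lowest of its group for 9 of the 10 genes, aged replicate 1 the lowest for 8 and aged replicate 2 the highest for 8. Without young replicate 1 or without aged replicate 2 all 10 changes were negative, and without aged replicate 1 they split into 5 positive and 5 negative; the count of calls was 0 without any 1 of the 6 arrays, and the median change ran from −0.78 to −0.14. Against the mean of the other 9 genes, Vwf (0.77) and Flt1 (0.52) were higher in aged WAT, and Tie1 (−0.58), Cdh5 (−0.46) and Pecam1 (−0.22) were lower, each without overlap.

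The test of whether the age change differs between tissues called 2 of the 10 genes, where 37.6% of the 25754 genes tested were called. The age difference of Cdh5 was −0.19 in lung, 0.86 in liver, 0.27 in kidney and −0.83 in WAT (F = 10.6, adjusted p = 0.0025 by limma). That of Nos3 was 0.10, −0.03, 0.21 and −1.21 in the same order (F = 6.30, 0.0161). Both passed with any 1 of the 24 arrays left out. Vwf, called in lung and kidney and not in liver or WAT, was not shown to differ between them (adjusted p = 0.131 by limma), nor were Eng (0.155) or Kdr (0.163). Without young WAT replicate 1 the count was 8, adding Pecam1 (0.0144), Tek (0.0163), Tie1 (0.0034), Vwf (0.0350), Eng (0.0291) and Emcn (0.0211); without aged WAT replicate 2 Tie1 (0.0279) and Eng (0.0354) were added, without aged WAT replicate 1 Kdr (0.0143), and without aged liver replicate 2 Vwf (0.0422). Quantile normalization added Emcn (0.0490). The median over all spike-in spots left 0 calls (Cdh5 0.315, Nos3 0.289). The share of all genes called was not counted for any of these alternative fits, so their counts of members cannot be set beside it.

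The order of tissues at 90 weeks is given without a test. Lung held the highest level of 9 genes and kidney that of Emcn. Nos3, highest in WAT when young, averaged 2.55 in aged lung and 2.36 in aged WAT, with overlapping samples, and its range between tissues was 1.68 (3.20-fold) in place of 2.68 (6.41-fold). Eng in aged kidney averaged 2.65, above aged liver at 2.07 and aged WAT at 1.96, with samples that overlapped those of WAT. Vwf still spanned 7.20 (147-fold) from lung to kidney.

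Platelets share Vwf with endothelium, and their markers were read in the same samples. Counts for platelet and leukocyte markers stand beside the shares of all genes called higher and lower. These were 2.7% and 2.86% in lung, 20.7% and 42.5% in kidney, 10.6% and 16.8% in liver, and 1.99% and 0.566% in WAT. In lung all 12 platelet markers were well above background on every array, and their summed signal, in multiples of the 75th percentile signal, was 15.8, 18.9 and 14.9 in young and 28.9, 54.2 and 50.9 in aged samples, with the largest term from Pf4, a platelet chemokine. In the lung 5 of the 12 rose, among them Itga2b (1.95 ± 0.24, adjusted p = 0.0180 by limma), the fibrinogen receptor subunit that defines the lineage, and Gp9 (1.96). In kidney the sum was 2.20, 1.08 and 2.03 in young and 9.09, 5.78 and 4.94 in aged samples, with 7 to 9 and then 9 of 12 detected. The defining gene moved against Vwf there: Itga2b fell (−1.32), Gp1bb fell as well, Pf4 (3.19) and Itgb3 (1.51) rose, and Gp1ba, Gp5 and Gp6 were not well above background on any of the 6 kidney arrays. In liver the sum went from 6.18, 5.99 and 7.46 to 72.2, 52.6 and 35.6, with Pf4 (4.89), Clec1b (1.82) and Itgb3 (2.09) called of 11 tested. There 6 to 9 of the 12 were detected in young and 11 to 12 in aged samples. The largest term was Clec1b in young livers and Pf4 or Clec1b in aged ones. Aged liver replicate 2, with the highest Vwf, also had the highest Itga2b, −0.56 against −2.86 and −2.73 in the other aged livers. In WAT, where 0 of 11 platelet genes were called by limma (4 unadjusted, 0 by the methods' t-test), the sum was 17.0, 46.2 and 37.6 in young and 112, 61.0 and 78.6 in aged samples. The part of platelets in the Vwf values was not tested, nor was the part of other cells in these sums.

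**Figure D3:**
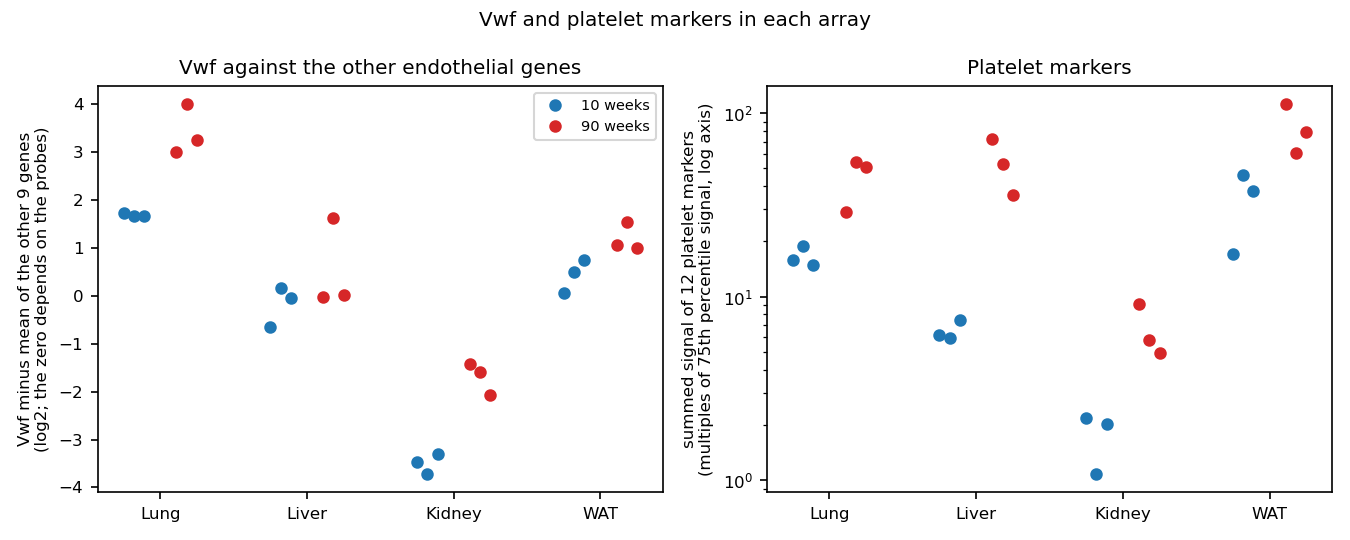
Left, Vwf minus the mean of the other 9 endothelial genes in each array (log2, its zero set by the probes); right, summed signal of 12 platelet markers in multiples of the 75th percentile signal on a log axis, at 10 weeks (blue) and 90 weeks (red). Both panels are higher in every aged lung, kidney and WAT sample than in every young one of that tissue. In liver this holds for the right panel alone.

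Leukocytes share Pecam1 and Eng with endothelium, and their markers were higher in aged samples. The summed signal of 10 leukocyte markers was 45.2, 37.6 and 41.7 in young and 116, 97.2 and 81.1 in aged kidneys, with 9 of 10 detected, the largest term from Csf1r or Itgam and Clec4f, the Kupffer cell lectin, not well above background; 8 of 9 tested rose, with Adgre1, the macrophage F4/80 antigen, up by 3.79. In liver the sum was 76.4, 84.6 and 67.4 and then 256, 550 and 212, and 6 of 10 rose. In lung it was 79.0, 85.1 and 104 and then 177, 422 and 190, and Ptprc (1.34), the CD45 gene, and Cd3e (1.23) rose. In WAT it was 45.2, 96.9 and 101 and then 420, 212 and 471, and 4 of 9 rose, with Cd68 up by 3.72; leaving out 1 array ended the Cd68 call in 5 of 6 fits and the Adgre1 call in 6 of 6. The methods' t-test called 0 genes of any list in WAT and, in lung, 1 leukocyte gene alone. On the main scale, Pecam1, which leukocytes share, was called in none of these tissues by limma, and Eng in kidney alone. Pecam1 was called higher in kidney on the spike-in scale by probe (0.45, adjusted p = 0.030 by limma). Eng was called higher in liver with normexp (0.39, adjusted p = 0.0349 by limma). The part of leukocytes in the Eng values was not tested.

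The ligands of the members' receptors were measured too. Counts of this and the further lists stand beside shares of all genes of 20.7% higher and 42.5% lower in kidney (29.4% higher on the spike-in scale), 10.6% and 16.8% in liver, 2.7% and 2.86% in lung, and 1.99% and 0.566% in WAT. Of the named list genes called, leaving out 1 array ended the call in at least 1 fit for 19 of 19 in lung, 28 of 50 in liver, 6 of 62 in kidney and 8 of 8 in WAT. Vegfa, the main ligand of Kdr and Flt1, read 3.38, 3.29 and 3.41 in young and 2.54, 2.59 and 2.59 in aged kidneys. The aged kidneys lay together well below the young ones, and the fall was −0.79 ± 0.07 (SE, adjusted p = 4.2e-04 by limma). Vegfa was not called in lung (−0.67), liver (0.27) or WAT (0.43). Of 10 ligands tested in kidney, Vegfc, Vegfd (1.63) and Angpt4 (at least 1.59-fold higher, its young samples being not well above background, and −0.12 with normexp) rose and Vegfa, Vegfb, Angpt1 and Bmp10 fell, with a median of −0.03. In liver 4 of 10 rose: Vegfc, Angpt1 (1.17), the agonist of Tek, Gdf2 (0.67), which encodes the Eng ligand BMP9, and Apln (at least 4.09-fold). In lung 0 of 11 and in WAT 0 of 10 were called by limma, with medians of −0.13 and −0.49; 4 and 3 passed without adjustment and 0 by the methods' t-test.

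Other receptors of endothelial cells rose in kidney for 6 of 11 genes, among them Acvrl1, the BMP9 receptor that works with Eng (1.03), and Calcrl (0.99), and fell for Nrp2 (−1.0) and Robo4; with the mean of a gene's probes Nrp2 turned to 0.51. Liver had 2 of 10 higher, Acvrl1 (1.39) and Robo4 (0.76), and lung and WAT had 0 of 11 by limma (3 and 2 unadjusted, 0 by the methods' t-test). The other surface and junction genes were higher for 6 of 13 in liver, with a median of 0.67, among them Cd34 (1.46), the progenitor sialomucin, and Plvap (0.95), the diaphragm protein of fenestrae, beside the Cdh5 rise. In kidney 6 of 13 rose, with Ecscr (1.54), Jam2 (1.42) and Cd34 (1.12). Lung had 1 call, Cd34, which fell (−0.66), and WAT had 0 by limma (3 unadjusted, 0 by the methods' t-test), with a median of −0.56. Cldn5, a tight junction claudin, was called in no tissue by limma. Its change was 0.36 in lung, −0.80 in liver, 0.17 in kidney and −1.40 in WAT.

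Transcription factors of endothelium rose for 6 of 14 in kidney, including Klf4 (1.58), Fli1 (1.43) and Hhex (1.40), with Gata2 lower. Fli1 rose also in lung (0.63), the sole call of 15, and in liver (1.75), where Ets1 (0.59) passed as well, a call lost in 6 of 6 fits that left out 1 array; WAT had 0 of 15 by limma (3 unadjusted, 0 by the methods' t-test). Erg, the ETS factor most tied to endothelium, was called in no tissue (0.04 in lung, 0.50 in liver, 0.05 in kidney and −0.71 in WAT). Of the nitric oxide genes beside Nos3, 7 of 12 rose in kidney, where Gucy1a1, a subunit of the nitric oxide receptor, was up by 2.12, and Ddah1 fell. In lung Gucy1a1 (−0.98) and Gucy1b1 (−0.90) fell, and in liver Gucy1a1 (0.75), Gucy1b1 and Prkg1 (1.0) rose and Gch1 fell (−0.76). Cav1, the caveolin that holds Nos3 in check, differed by −2.01 in WAT, with samples that did not overlap, and 0 of 12 were called there by limma (5 unadjusted, 0 by the methods' t-test). Of the clotting genes beside Vwf, 5 of 7 rose in kidney, among them Thbd (1.34), the thrombin receptor thrombomodulin, and 3 of 8 in liver, among them Procr (1.63) and Tfpi (0.59, lost in 6 of 6 such fits). Lung had 0 of 8 and WAT 0 of 7 by limma (1 and 0 unadjusted, 0 by the methods' t-test). The shifts of scale given for kidney and liver apply to the genes of these lists alike.

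**Figure D4:**
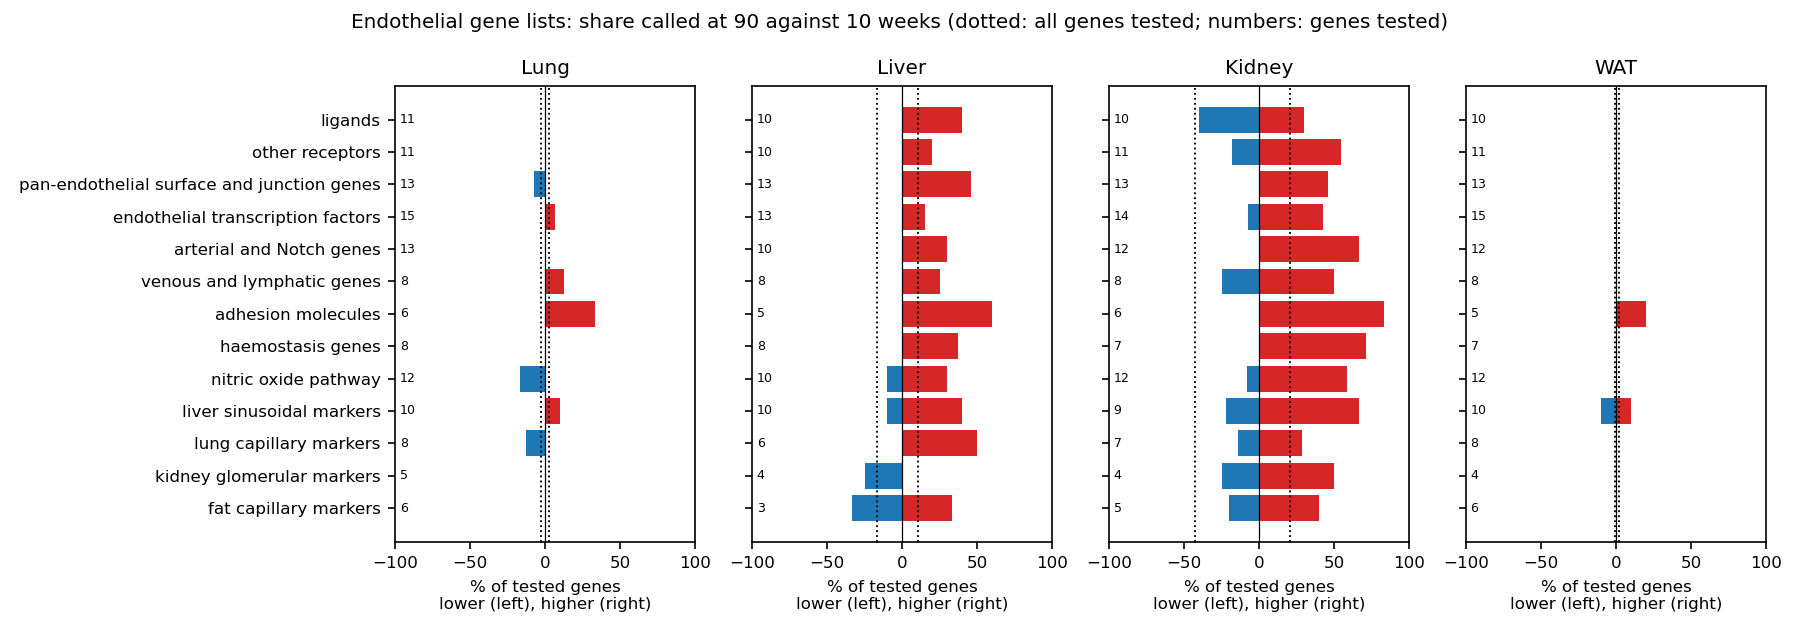
Share of the tested genes of each endothelial list called higher (right, red) or lower (left, blue) at 90 weeks in each tissue, with dotted lines at the shares of all genes and the number tested beside each bar. Kidney and liver lists lie mostly to the right; in kidney and liver the share of all genes called higher depends on the scaling.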

How the data were processed

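Agilent arrays of 62976 spots, 1 per tissue sample, were read as the authors deposited them: scanner intensity, with a processed intensity from which Feature Extraction had subtracted the background, per the file headers. The headers name a mouse design, whereas the methods name a human kit. Of 56605 probes, 32989 (58.3%) were matched through their accession, without its version, to 1 mouse RefSeq symbol, 22907 symbols in all, and the others kept the file's name. From the processed intensity, log2 minus each array's 75th percentile over probes other than controls was computed; 1841 outlier spots (at most 135 on 1 array) were left out, spots of a probe were averaged, and the brightest probe over the 24 arrays stood for a gene. No spot was saturated. Probes well above background on at least 3 arrays of a fit were tested with limma 3.58.1 (lmFit, eBayes) in R 4.3.3, p was adjusted by Benjamini-Hochberg over all genes of a comparison, and the threshold was 0.05. Fits compared ages within each tissue (6 arrays), tissues at 10 weeks, and the age change between tissues (24 arrays). Tables and figures used Python 3.11.15, numpy 2.4.6, pandas 2.3.3 and matplotlib 3.10.9, and the scripts were tested on simulated data. Between 58.6% and 71.1% of probes were well above background per array.

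The 10 members and the 22 lists of 183 other genes were chosen with earlier results of these data known. Genes named were the members, up to 3 genes per list and tissue with the largest change among those called without overlap and detected in the brighter group, each list's first gene, genes of lists with 5 or fewer calls, and the 5 genes most correlated with the members. A gene not well above background on every array of a group has a bound there, "at least N-fold": the brighter group's mean against, per dim array, the higher of its own signal and the lowest signal well above background. Summed signals run over all genes of a list. Some genes are counted in their list but not reported here singly.

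Alternatives were normexp (offset 50, on the median signal, as the files hold no mean), quantile normalization, scaling to the median of the 350 spike-in spots, centring on the median of tested genes, no filter, the mean of a gene's probes, the brightest probe within the tissue, all 24 arrays in the fit, only the 12 young arrays, a replicate block, the methods' t-test, and leaving out each array. The median of all spike-in spots falls in a gap between the levels of 2 of the 10 spike-in probes and jumps from 1 side to the other (8.76 to 10.51 among the liver arrays), so a scaling with each spike-in probe centred on its own mean was chosen after seeing the data.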

Additional observations from a re-analysis of the deposited data

Results flagged for a closer look

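2 results stood out because limma's F test for a different age change between tissues passed, with p adjusted over all genes of the fit; it passed for 37.6% of all 25754 genes, against 2 of the 10. Cdh5, the cadherin of endothelial junctions, gave an adjusted p of 0.00251 by limma, with age differences of −0.19 in lung, 0.86 in liver, 0.27 in kidney and −0.83 in white adipose tissue (WAT). Nos3, the endothelial nitric oxide synthase, gave an adjusted p of 0.0161 by limma, with 0.10 in lung, −0.03 in liver, 0.21 in kidney and −1.21 in WAT. Scaling to the median of all spike-in spots ended both calls (adjusted p by limma 0.315 for Cdh5 and 0.289 for Nos3). No other alternative run for this test ended either of them. Each tissue had a slide of its own, so a difference between tissues and a difference between slides cannot be told apart.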

How the results depend on the processing

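The main limits were 3 mice a group, whole tissue, signal close to background for dim genes, and scaling: the kidney and liver counts rested on it. Of the alternative values for members' age changes 604 kept direction and side of the threshold, 33 turned, 24 passed newly and 19 were lost; for tissue differences these were 1153, 23, 6 and 18, and for the other named genes 1836, 4, 0 and 523. Of the adjusted p from the F test 287 kept their side, 11 passed newly and 2 were lost, and all 120 alternative counts between tissues at 10 weeks, higher and lower added together, stayed within 1.5 times. Except where said, the cause was not tested.

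Normexp called 4 members in liver and 5 in kidney, and gave −0.12 for both Angpt4 and Rbp7 in kidney and, for liver minus kidney at 10 weeks, Eng −0.034 and Nos3 −0.038. Genes lower went from 868 to 496 in lung and from 4685 to 7475 in liver. Quantile normalization called 5 in kidney, with Flt1 at 0.11. Centring on the median of tested genes called 5 in kidney, with a median of 0.075 and Pecam1 at −0.037. The mean of a gene's probes gave Nrp2 0.51 and Ager 0.79 in kidney. No filter called 0 in lung and 2 in liver, with more genes tested; genes called in lung were 302 higher and 132 lower in place of 819 and 868, those lower in liver 12859 in place of 4685, and those lower in WAT 75 in place of 170. The fit of all 24 arrays called 3 in WAT, with 3249 and 3115 genes in place of 598 and 170, and genes lower were 382 in lung and 7773 in liver. The methods' t-test called 0 in lung and 2 in liver; all genes called were 91 and 120 in lung, 1328 and 1765 in place of 2947 and 4685 in liver, and 1 and 0 in WAT.

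The median of all spike-in spots, whose jumps come from its construction, called 2 in lung, 0 in liver and 1 in kidney, with medians of −0.21, −0.32 and 0.38. In lung Tek was −0.22, Tie1 −0.085 and Nos3 −0.20; in liver Pecam1 was −0.45, Kdr −0.41, Eng −0.23 and Emcn −0.14; in kidney Flt1 was 0.053 and Tek 0.061; and in WAT Kdr was 0.12. At 10 weeks it gave Emcn 0.0084 for lung minus kidney, Nos3 0.095 for lung minus WAT, Eng −0.45 and Nos3 −0.44 for liver minus kidney, Eng 0.013 for liver minus WAT, and Kdr 0.21, Flt1 0.45, Tek 0.43 and Eng 0.46 for kidney minus WAT. Members lower went from 8 to 6 for liver minus WAT (Flt1 and Tek lost) and from 5 to 3 for kidney minus WAT (Pecam1 and Tie1 lost). Genes lower were 3562 in lung, genes higher 1071 in liver, and both 3877 and 1164 in kidney and 1121 and 77 in WAT. The F test between tissues was left with 0 members. Members higher went from 3 to 1 for liver minus kidney, as also with the scaling by probe.

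The spike-in scaling by probe, chosen after seeing the data, called 0 in liver and 7 in kidney, with a kidney median of 0.56. Tek was −0.0091 in lung, Tie1 0.044 and Nos3 0.082 in liver, and Flt1 0.23 and Tek 0.24 in kidney. At 10 weeks Emcn was 0.38 for lung minus kidney, Eng −0.43 and Nos3 −0.42 for liver minus kidney, and Kdr −0.20 for liver minus WAT. Genes lower were 539 in lung. Genes called were 2570 and 944 in place of 2947 and 4685 in liver, and 9269 and 4782 in place of 6510 and 13374 in kidney.

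Leaving out 1 array at a time, which leaves 2 in its group, gave 0 to 2 calls in lung, 0 to 1 in liver and 2 to 8 in the F test. For the F test the share of all genes called was not counted in these fits. Ranges that crossed 0 were, in lung, −0.18 to 0.047 for Pecam1 and −0.14 to 0.34 for Nos3; in liver, −0.23 to 0.032 for Tie1 and −0.17 to 0.12 for Nos3; and in WAT, −0.37 to 0.22 for Kdr, −0.18 to 0.35 for Flt1, −0.17 to 0.62 for Vwf, −0.21 to 0.29 for Eng and −0.68 to 0.0083 for Emcn, with the WAT median at −0.78 to −0.14. At 10 weeks they were −0.039 to 0.11 for Eng and −0.13 to 0.16 for Nos3 in liver minus kidney, −0.42 to 0.022 for Eng in liver minus WAT, and −0.64 to 0.057 for Tek and −0.44 to 0.0037 for Eng in kidney minus WAT. Genes called higher and lower ran from 1 to 1092 and 1 to 900 in lung, 1508 to 2730 and 977 to 4375 in liver, 5579 to 6326 and 11185 to 12915 in kidney, and 206 to 482 and 25 to 120 in WAT.

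The labels do not say that samples of the same age with the same number share a mouse. The deviations of same-numbered samples correlated above 0.1 in 2 of 11 pairs between ages (−0.11 to 0.19) and 10 of 33 between tissues (−0.21 to 0.30), so the numbers were not used as pairs in the main fits. All 3 pairs of aged kidney and WAT (0.128, 0.161 and 0.172) and both of aged lung and liver (0.169 and 0.296) lay above 0.1, and whether they share mice is not known. Within a tissue the replicate block joins young and aged samples of the same number, which come from different mice. The block leaves fewer degrees of freedom, and it gave 0 calls in lung and 0 in liver. In liver, where only numbers 1 and 2 have both ages, Nos3 was at 0.13. All genes called were 1 and 0 in lung, 1080 and 620 in liver and 323 and 43 in WAT. Its estimated correlation was 0.0174 between tissues and 0.0215 in the F test, and it moved no other count of members.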

Other observations

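Genes listed for endothelium of different vessel types were read in whole tissue through 7 further lists, by limma and on the 75th percentile scale. Other cells of a tissue can carry genes of these lists and of the endothelial lists above, and their part in the changes was not tested. Of the arterial and Notch genes, 8 of 12 rose in kidney, with Unc5b (1.41), a netrin receptor, Efnb2 (1.06), the arterial ephrin, and Gja5 (1.01), a connexin of arteries, and 0 fell. In liver 3 of 10 rose, Hey1 (2.25), a Notch target, Unc5b (1.22) and Notch4 (0.74), while lung had 0 of 13 and WAT 0 of 12 by limma (3 and 5 unadjusted, 0 by the methods' t-test). Dll4, the Notch ligand of arteries and sprouting tips, was called in no tissue (−0.15 in lung, 0.41 in liver, −0.26 in kidney and −1.04 in WAT). Of the venous and lymphatic genes, 4 of 8 rose in kidney: Lyve1 (at least 4.08-fold, its young kidneys being not well above background), Pdpn (2.58), Ccl21a (1.79) and Mmrn1, while Prox1, the lymphatic master regulator, and Reln fell. Lyve1 (1.85) and Reln (0.80) rose in liver, Reln (0.92) rose in lung, and WAT had 0 of 8 by limma, adjusted or not, and by the methods' t-test. Ephb4, the venous ephrin receptor, was called in none of the 4 tissues by limma.

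The adhesion molecules that catch leukocytes had calls in each tissue by limma. Vcam1 read 0.09, 0.32 and 0.41 in the young kidneys and 4.86, 4.96 and 4.64 in the aged ones, a rise of 4.55 (adjusted p = 1.6e-05 by limma). In liver it read 0.67, 1.68 and 2.18 and then 4.51, 5.50 and 4.60 (3.36), and in WAT 0.51, 1.56 and 1.96 and then 4.75, 4.05 and 5.08 (3.28, adjusted p = 0.0254 by limma), with no overlap between ages. Kidney had 5 of 6 higher, with Icam1 (1.88), Ackr1 (at least 1.74-fold), Selp and Sele, whose young samples were not well above background. Liver had 3 of 5, with Icam1 (1.70) and Ackr1 (0.98), lung had 2 of 6, Selp (0.90) and Ackr1 (2.19), and WAT had 1 of 5. In lung and WAT the methods' t-test called 0 of them, and leaving out 1 array ended the calls of Selp and Ackr1 in lung in 5 of 6 fits each and that of Vcam1 in WAT in 3 of 6.

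Markers of the endothelium of single organs differed in both directions. Of the liver sinusoidal markers, Stab2 (0.53), Fcgr2b (1.01), Gpr182 and Lyve1 rose in liver and Wnt2 fell (−1.17), 5 of 10 calls, and their summed signal averaged 79.4 in young and 93.2 in aged livers. In kidney 6 of 9 rose, with Stab1 (2.06) and Oit3 (at least 3.01-fold), and Stab2 (−1.29) and Clec4g fell; Gpr182 (0.62) rose in lung, and in WAT Oit3 rose (at least 9.36-fold) and Clec4g fell (−1.49), calls lost in 3 and 6 of 6 fits that left out 1 array. Of the lung capillary markers, Ednrb fell in lung (−0.91), 1 of 8, while Car4, of aerocytes, was not called (−0.58, adjusted p = 0.0551 by limma), and the sum averaged 138 and 153. Car4 fell in kidney (−1.95), where Foxf1 (1.35) and Gpihbp1 (0.56) rose; Tbx2 (0.61), Tmem100 (at least 4.44-fold) and Foxf1 (0.85) rose in liver, and WAT had 0 of 8 by limma (3 unadjusted, 0 by the methods' t-test). Of the glomerular markers, Tbx3 (0.84) and Plat (1.19) rose and Gata5 (−0.66) fell in kidney, with a sum of 10.6 and then 15.9, and Gata5 fell in liver (−0.91). At 10 weeks the same sum averaged 33.7 in lung, 28.2 in liver and 14.8 in WAT, so this list did not single out the kidney. Lung (0 of 5) and WAT (0 of 4) had no glomerular call by limma (1 and 0 unadjusted, 0 by the methods' t-test). Of the fat capillary markers 0 of 6 were called in WAT and 0 of 6 in lung by limma (0 and 3 unadjusted, 0 by the methods' t-test), with Rbp7, their first gene, at 0.28 in WAT. The WAT sum averaged 97.0 and 92.6. In kidney Rbp7 (0.43 on the main scale and −0.12 with normexp) and Gpihbp1 rose and Cd300lg fell (−0.67), and in liver Btnl9 (0.89) rose and Cd300lg (−0.61) fell, the latter lost in 6 of 6 such fits.

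Cells around the vessels differed as well. The summed mural signal was 122, 150 and 128 in young and 91.4, 75.8 and 74.0 in aged lungs, where Pdgfrb (−1.20), the pericyte receptor, Cnn1 (−1.75) and Des fell and Rgs5 (1.48) rose. In kidney it was 31.4, 32.3 and 35.0 and then 80.8, 78.3 and 57.0, with 8 of 11 higher, among them Cnn1 (2.27), Des (1.85) and Tagln (1.83), and Abcc9 and Kcnj8 lower; in liver 5 of 11 rose, with Kcnj8 (2.17) and Abcc9 (1.80), and Notch3 fell (−1.65). WAT had 0 of 11 by limma (5 unadjusted, 0 by the methods' t-test). Fibroblast markers rose for 7 of 7 in kidney, with Lum (4.23) and Col1a1 (3.61), and for 5 of 7 in liver, with Lum (1.38). In lung Dpt fell (−1.96) by limma. There 7 of 7 passed without adjustment and 0 by the methods' t-test, with a median of −1.93. Their summed signal was 137, 138 and 107 in young and 57.9, 42.1 and 65.5 in aged lungs. WAT had 0 of 7 by limma (1 unadjusted, 0 by the methods' t-test).

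Markers of other organs varied between samples. Of the fat genes Plin1 fell in lung. The summed signal there was 84.3, 90.0 and 49.0 in young and 0.394, 0.549 and 8.23 in aged samples. In kidney Adipoq, Cfd (5.0) and Plin1 were higher and Lep (−0.45) lower. In liver Cfd and Lep (−0.69) fell, and WAT had 0 of 4 by limma, adjusted or not, and by the methods' t-test. The 5 cardiac genes summed to 218, 182 and 73.2 in young and 14.0, 64.5 and 149 in aged lungs. None was called in lung or WAT by limma (1 each unadjusted, 0 by the methods' t-test). Nppa (−0.66) fell in liver, and in kidney Tnnt2 and Actc1 (1.19) rose and Myh6 (−1.40) fell. Of the liver genes Ttr fell in liver (−0.75) and WAT (at least 5.99-fold lower), all 3 tested fell in kidney, and 0 of 3 were called in lung by limma, adjusted or not, and by the methods' t-test; their sum was 126 in aged lung replicate 1 and 2.13 to 12.3 in the other lungs, and 26.7, 83.3 and 394 in aged WAT. Of the kidney genes Umod (−1.03), Slc12a1 (−1.21) and Slc34a1 (−1.53) fell in kidney, Aqp2 (−0.97) fell in liver, and 0 of 3 were called in lung by limma (1 unadjusted, 0 by the methods' t-test). Of the lung genes Ager (−0.50, and 0.79 with the mean of its probes) and Scgb1a1 fell in kidney, and 0 of 4 in lung, 0 of 3 in liver and 0 of 2 in WAT were called by limma, adjusted or not, and by the methods' t-test. Of the 3 samples of a group, only 1 was well above background for Adipoq, Plin1 and Tnnt2 in young kidney. The same held for Plin1 in aged lung and Cfd in aged liver, so neither a size nor a bound is given for these changes. For Scgb1a1 in aged kidney 2 samples were well above background. Adipoq and Cfd overlapped between ages in kidney. The part of these cells and tissues in the values of the 10 endothelial genes was not tested.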
